A study of Saccharomyces cerevisiae with 4 samples.

Results

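The genes of yeast glycerol metabolism were compared between nitrogen-poor minimal medium and nitrogen-rich synthetic medium. They were chosen by name, with earlier results of these data known. They make up 10 of the 6301 open reading frames (ORFs) in the deposited value table, and each had a single row there. They cover glycerol synthesis (GPD1, GPD2, GPP1 and GPP2), glycerol breakdown (GUT1 and GUT2), transport across the plasma membrane (STL1 and FPS1), the kinase HOG1 and the glycerol dehydrogenase GCY1. Cells of the laboratory strain S288c in minimal medium had grown to mid log phase (OD600 of 0.4) at 30 °C in synthetic complete medium and were then held for 12 h in a medium with neither amino acids nor adenine and with 0.025% ammonium sulfate. Cells in synthetic medium were the reference on the same array. Nitrogen supply, the missing amino acids and adenine, and the added time in culture moved together and cannot be told apart.

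Each of the 4 arrays carried PCR-amplified ORFs and was hybridized with cDNA of both media, one in Cy5 and one in Cy3, so that a spot gave 1 log2 ratio of minimal over synthetic medium. A log2 ratio of 1 is a 2-fold higher level in minimal medium. The cDNA had been primed with oligo-dT together with a multi-targeted primer, a short sequence chosen to prime many messages at once. By their titles, 2 arrays had the minimal medium in Cy5 and 2 had the synthetic medium in Cy5, each with replicates numbered 1 and 2. The channel descriptions name the opposite dyes for the same orientations, so which medium carried which dye was not settled. The direction was settled by the study's own relative levels in both media, with which the arrays correlated at r = 0.964, 0.983, 0.967 and 0.972 over 1737 to 1924 ORFs. Replicates came from separate reverse transcription reactions, and the number of cultures was not given in the sources used here. Errors and p-values therefore measure the spread between arrays, which may be technical.

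Glycerol is the main compatible solute of baker's yeast and also its outlet for surplus cytosolic NADH. It is made from the glycolytic intermediate dihydroxyacetone phosphate in a pair of steps, a reduction to glycerol 3-phosphate by Gpd1 or Gpd2 and a dephosphorylation by Gpp1 or Gpp2. Breakdown runs the other way by another set of enzymes: Gut1 phosphorylates glycerol, and mitochondrial Gut2 oxidizes glycerol 3-phosphate and passes the electrons to the respiratory chain. The channel Fps1 lets glycerol out, the proton symporter Stl1 takes it up, and the MAP kinase Hog1 raises glycerol synthesis when the cell loses water.

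The main pattern was a division by role. Both breakdown genes and both transport genes were higher in minimal medium, by 1.24-fold (FPS1) to 6.96-fold (STL1). Of the 4 synthesis genes 3 were lower there, by 2.02-fold to 3.48-fold. GPD1 went the other way from the rest of the synthesis group and was 1.33-fold higher. HOG1 was 1.5-fold lower. GCY1 did not pass the test. Tests were made with limma over the 5956 ORFs measured on 3 or 4 arrays, with Benjamini-Hochberg adjustment over all of them, and an ORF was called at an adjusted p of 0.05 or less. By this rule 9 of the 10 genes were called, 5 higher and 4 lower. Over all ORFs tested 65.3% were called, 33.8% higher and 31.5% lower, so being called was common on these arrays and the size of a change tells more than the call. In the plot of the members by array each gene keeps its side of 0 on every array.

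**Figure D1:**
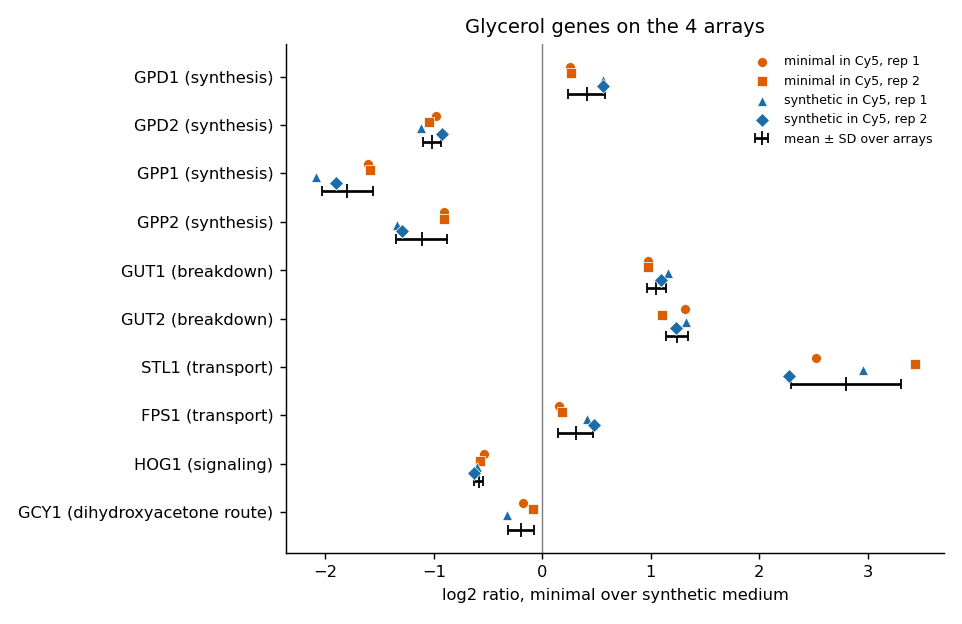
Log2 ratio of minimal over synthetic medium (x axis) for the 10 glycerol genes (rows), with 1 symbol per array and the mean ± SD over arrays below the symbols. STL1 lies farthest to the right at a mean of 2.80 and has the widest scatter, GPP1 lies farthest to the left at -1.80, and no gene has arrays on both sides of 0.

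Gpp1 and Gpp2 remove the phosphate from glycerol 3-phosphate, the last step of glycerol synthesis. Of the 10 genes GPP1 (YIL053W) had the lowest ratio. Its log2 ratios were -1.61 and -1.59 on the minimal-in-Cy5 arrays and -2.09 and -1.90 on the synthetic-in-Cy5 arrays. Every array thus gave a decrease of more than 2-fold, with the steeper values on the synthetic-in-Cy5 arrays. The mean was -1.80 ± 0.24 (SD, n = 4 arrays), a 3.48-fold lower level in minimal medium (limma, adjusted p = 9.44e-06), and 1.49% of the ORFs tested had a lower mean. GPP2 (YER062C) had log2 ratios of -0.91 and -0.91 on the minimal-in-Cy5 arrays and -1.34 and -1.29 on the synthetic-in-Cy5 arrays. The same gap between orientations was visible here as in GPP1. GPP2 averaged -1.11 ± 0.23 (SD, n = 4), or 2.16-fold lower in minimal medium (limma, adjusted p = 7.77e-05). The phosphatases are close paralogs and the spots carried whole ORFs, so their signals can mix through cross-hybridization. How much was shared was not tested.

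Gpd1 and Gpd2 catalyze the same reduction upstream of the phosphatases and are known to be regulated apart, GPD1 by osmotic stress and GPD2 by the need to reoxidize NADH without oxygen. GPD2 (YOL059W) was close to halved on every array, with log2 ratios of -0.98 and -1.04 on the minimal-in-Cy5 arrays and -1.11 and -0.92 on the synthetic-in-Cy5 arrays. The values of the orientations overlapped. The mean of -1.01 ± 0.08 (SD, n = 4) was a 2.02-fold lower level in minimal medium (limma, adjusted p = 1.35e-05). GPD1 (YDL022W) stood apart, with log2 ratios of 0.25 and 0.26 on the minimal-in-Cy5 arrays and 0.56 and 0.56 on the synthetic-in-Cy5 arrays. These form narrow pairs, one pair per orientation, both above 0. GPD1 averaged 0.41 ± 0.17 (SD, n = 4), with a 95% confidence interval of 0.22 to 0.59 and an adjusted p of 0.00329 (limma). Its ratio was above that of 79.8% of the ORFs tested, so that it lay in the upper part of the bulk and not in the tail. As paralogs, GPD1 and GPD2 can also share signal on whole-ORF spots, which was not tested either.

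Glycerol kinase, Gut1, and the mitochondrial glycerol 3-phosphate dehydrogenase, Gut2, together return glycerol to dihydroxyacetone phosphate, and both are known as genes repressed by glucose. GUT1 (YHL032C) had log2 ratios of 0.98 and 0.98 on the minimal-in-Cy5 arrays and 1.16 and 1.09 on the synthetic-in-Cy5 arrays. All 4 lay within a narrow band around a 2-fold increase. The mean was 1.05 ± 0.09 (SD, n = 4), or 2.07-fold higher in minimal medium (limma, adjusted p = 1.27e-05). GUT2 (YIL155C) was a little higher still, with log2 ratios of 1.32 and 1.11 on the minimal-in-Cy5 arrays and 1.32 and 1.24 on the synthetic-in-Cy5 arrays. The orientations overlapped, and the lowest value came from the second minimal-in-Cy5 array. GUT2 averaged 1.25 ± 0.10 (SD, n = 4), which is 2.37-fold higher in minimal medium (limma, adjusted p = 7.16e-06). A higher mean was found in 5.12% of the ORFs tested for GUT1 and in 3.46% for GUT2.

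Stl1 is the proton symporter that takes up glycerol from the medium, and its gene is known to be silent on glucose and to be induced for a short time by salt. STL1 (YDR536W) had the highest ratio of the 10 genes, with log2 ratios of 2.52 and 3.43 on the minimal-in-Cy5 arrays and 2.96 and 2.28 on the synthetic-in-Cy5 arrays. Each array showed an increase of more than 4-fold, but replicates of an orientation differed more than the orientations did. The mean of 2.80 ± 0.51 (SD, n = 4) was a 6.96-fold higher level in minimal medium, with a 95% confidence interval of 2.37 to 3.22 on the log2 scale (limma, adjusted p = 2.15e-05). In 0.487% of the ORFs tested the mean was higher. The SD of STL1 exceeded that of 98.8% of the ORFs tested, so its direction is firmer than its exact fold. The values used here are ratios, and the level of STL1 in either medium was not analysed here.

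Fps1, the glycerol channel through which cells lose the solute, had a ratio much closer to 0 than that of the symporter. FPS1 (YLL043W) had log2 ratios of 0.15 and 0.18 on the minimal-in-Cy5 arrays and 0.42 and 0.48 on the synthetic-in-Cy5 arrays. The values were small, positive on each array and split by orientation. The mean was 0.31 ± 0.16 (SD, n = 4), a 1.24-fold higher level in minimal medium (limma, adjusted p = 0.0101), and 26.2% of the ORFs tested had a higher mean. The FPS1 call was the weakest of the 9. It was lost when the gene was tested with its own variance and not a variance moderated over all ORFs (adjusted p = 0.0595).

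HOG1 (YLR113W) encodes the MAP kinase of the high osmolarity glycerol pathway, whose activity is set mainly by phosphorylation and not by its message level. Its log2 ratios were -0.54 and -0.58 on the minimal-in-Cy5 arrays and -0.60 and -0.63 on the synthetic-in-Cy5 arrays. The 4 values lay closer together than those of any other member. HOG1 averaged -0.59 ± 0.04 (SD, n = 4), a 1.5-fold lower level in minimal medium (limma, adjusted p = 0.000105), and 4.0% of the ORFs tested had a smaller SD. A lower mean was found in 11.7% of the ORFs tested.

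Gcy1, an aldo-keto reductase, can oxidize glycerol to dihydroxyacetone and so opens a second way into breakdown. GCY1 (YOR120W) had log2 ratios of -0.18 and -0.09 on the minimal-in-Cy5 arrays and -0.33 on the first synthetic-in-Cy5 array, with no value on the second. All 3 values were below 0 and small. The mean of -0.20 ± 0.12 (SD, n = 3) had a 95% confidence interval of -0.39 to -0.01 and did not pass after adjustment (limma, adjusted p = 0.0643). With a term for dye orientation in the fit, GCY1 passed at a log2 ratio of -0.23 (adjusted p = 0.0223).

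Set against the other ORFs, the glycerol genes were spread from the bulk of the distribution into both tails. Of the 10 genes 6 were called with a change of 2-fold or more (GPD2, GPP1, GPP2, GUT1, GUT2 and STL1), and 10.3% of all ORFs tested met this rule. The genes were chosen with earlier results of these data known, so this contrast is only a description. The median log2 ratio of the 10 genes was 0.05 because increases and decreases balanced, beside a median of 0.03 over all ORFs tested. The central 90% of all ORFs lay between -0.98 and 1.06, and GPD2, GPP1 and GPP2 lay below that range while GUT2 and STL1 lay above it. All 10 genes had the same sign on every array measured, as did 72.2% of all ORFs tested.

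**Figure D2:**
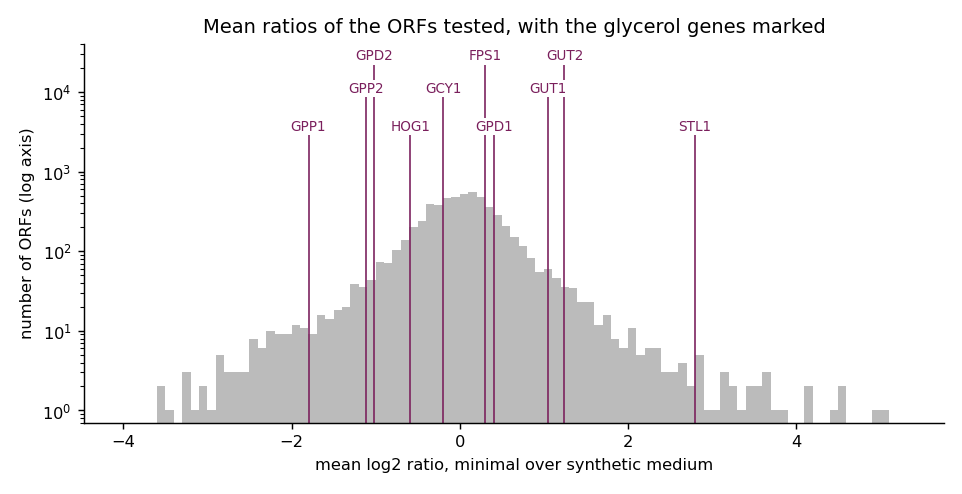
Histogram of the mean log2 ratio of minimal over synthetic medium for the 5956 ORFs tested (bins of 0.1, log count axis), with a line at the mean of each glycerol gene. GPP1 at -1.80 and STL1 at 2.80 stand in the sparse tails, and GCY1, FPS1 and GPD1 stand within the bulk.

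Partner genes can be compared within an array, where both share the same cDNA, labeling and normalization. On each array the log2 ratio of GPD1 exceeded that of GPD2, by 1.23, 1.31, 1.67 and 1.48 on the arrays in the order above, with a mean difference of 1.42 ± 0.19 (SD, n = 4). By these spots, GPD1 signal relative to GPD2 signal was 2.68-fold higher in minimal than in synthetic medium. Signal shared between the spots of these paralogs was not tested. GPP1 was lower than GPP2 in log2 ratio on each array, by differences of -0.70, -0.68, -0.75 and -0.60, with a mean of -0.68 ± 0.06 (SD, n = 4). The gap between the orientations seen in each phosphatase largely cancelled in this difference. GUT1 minus GUT2 was small but below 0 on each array, at -0.34, -0.13, -0.16 and -0.15, with a mean of -0.19 ± 0.10 (SD, n = 4). In the exact two-sided sign-flip permutation test, 2 of the 16 sign assignments were as extreme as the data for each of the 3 pairs. This is the smallest share that 4 arrays can give, it stands above the threshold, and Benjamini-Hochberg adjustment over the 3 pairs does not alter it.

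**Figure D3:**
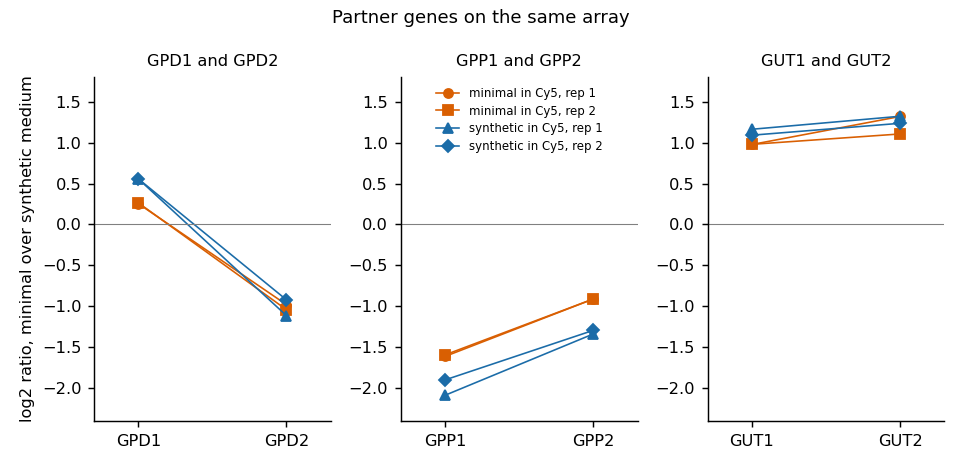
Log2 ratio of minimal over synthetic medium (y axis) for the genes of each pair, with a line joining the values of 1 array. Lines for GPD1 and GPD2 cross 0 on all 4 arrays, lines for GPP1 and GPP2 stay below 0 and rise toward GPP2, and lines for GUT1 and GUT2 are nearly flat, between 0.98 and 1.32.

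Gaps between the dye orientations were common on these arrays and did not change the direction of any member. Of the 9 genes with 4 values, 6 had orientations whose values did not overlap (GPD1, GPP1, GPP2, GUT1, FPS1 and HOG1), beside 56.8% of all ORFs with 4 values. The widest of these gaps were those of GPP2 and GPP1. The minimal-in-Cy5 arrays averaged -0.91 and the synthetic-in-Cy5 arrays -1.32 for GPP2, a difference of 0.41 (limma with an orientation term, adjusted p = 0.127). For GPP1 the means were -1.60 on the minimal-in-Cy5 arrays and -1.99 on the synthetic-in-Cy5 arrays, a difference of 0.39 (adjusted p = 0.141). GPD1 and FPS1 had gaps of the opposite sign, -0.30 and -0.28 (adjusted p = 0.149 and 0.169). No member passed this test, and 0.0168% of all ORFs did, which is 1 ORF. At an unadjusted p under 0.05, 1312 of the 5956 ORFs tested differed between orientations, GPD1, GPP1, GPP2 and FPS1 among them. The median difference over all ORFs was -0.08. With 2 arrays per orientation, a gap that did not pass after adjustment is not shown to be absent.

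**Figure D4:**
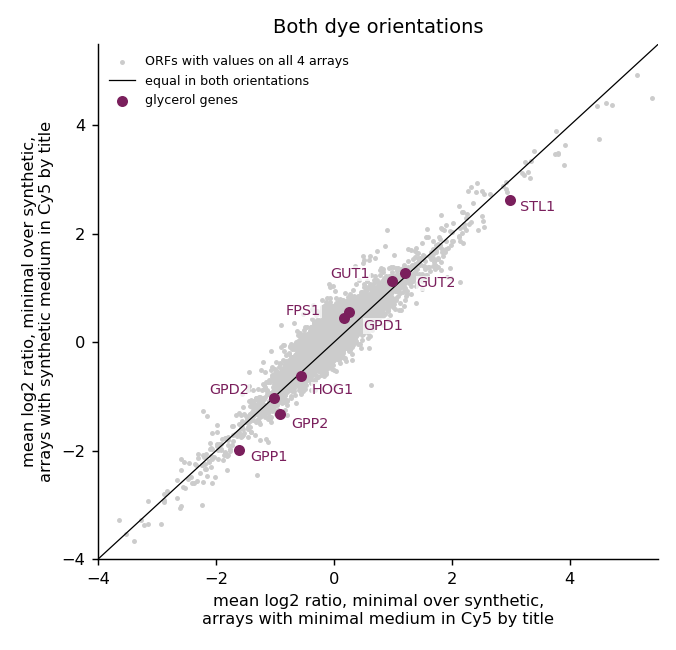
Mean log2 ratio of minimal over synthetic medium on the 2 minimal-in-Cy5 arrays (x axis) and on the 2 synthetic-in-Cy5 arrays (y axis) for the 5231 ORFs with 4 values, with 9 glycerol genes marked and a line of equality. The glycerol genes lie in the same quadrant in both orientations, with GPP1 and GPP2 below the line and GPD1 and FPS1 above it.

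The wider pathway was described with 11 gene lists, for which counts and medians are given beside those of all ORFs (65.3% called, median log2 ratio 0.03). The label of the nitrogen-poor medium was set beside a list of nitrogen catabolite repression genes, which cells switch on when good nitrogen sources run out. All 10 were called higher in minimal medium, with a median log2 ratio of 0.87. Their means ran from 0.23 to that of DAL5, the allantoate permease, at 3.34 ± 0.16 (SD, n = 4). With the replicate block 9 were called, and with each ORF's own variance 8. Array medians ran from -0.03 to 0.11. In bulk cultures, fewer cells with a message and less message per cell cannot be told apart, and normalization to the mean of each array leaves a change in total message unseen.

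Upstream and beside HOG1, the list of osmosensing and signaling genes had a called share of 47.6%, beside 65.3% of all ORFs, a difference that was not tested. Of 21 genes 6 were called higher, 4 lower and 11 were not called, with a median log2 ratio of 0.12. With a dye orientation term in the fit 14 of the 21 were called, beside 4369 of the 5956 ORFs tested. OPY2, a membrane anchor of the Sho1 branch, averaged 0.64 ± 0.10, and PTP3, a phosphatase that acts on Hog1, 0.59 ± 0.12 (SD, n = 4 each). The kinase STE20 of the Sho1 branch averaged -0.76 ± 0.15 (SD, n = 3), and SSK2, a kinase of the Sln1 branch, -0.32 ± 0.06 (SD, n = 4). NBP2 averaged -0.40 ± 0.20 (SD, n = 4), and its call was lost with its own variance (limma without moderation, adjusted p = 0.0529). PBS2, which phosphorylates Hog1 and was named after its values were seen, averaged -0.10 ± 0.16 (SD, n = 4) and was not called (limma, adjusted p = 0.262).

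Transcription factors of the osmotic response were called in 6 of 6 cases, 3 in each direction. SKO1, a bZIP factor that Hog1 phosphorylates, averaged 1.75 ± 0.11 and SMP1, a MADS-box factor, 1.51 ± 0.14 (SD, n = 4 each). Of the paralogous general stress factors, MSN4 averaged 0.92 ± 0.12 and MSN2 -0.65 ± 0.14 (SD, n = 4 each). These paralogs thus lay on opposite sides of 0. SKN7, a response regulator that receives phosphate from the Sln1 branch, averaged -0.51 ± 0.10 (SD, n = 4). HOT1, the factor known to recruit Hog1 to GPD1 and STL1, averaged -0.23 ± 0.16 (SD, n = 4; limma, adjusted p = 0.0313). That call was lost without either minimal-in-Cy5 array, without the first synthetic-in-Cy5 array or with the gene's own variance (adjusted p of 0.0835 to 0.112).

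Genes that Hog1 is known to induce under osmotic stress had 9 of 12 measured members called higher and none lower, and their median log2 ratio was 1.41. DDR2, the remaining gene of the list, had no value. The largest increases were in the hydrophilin genes SIP18, at 4.95 ± 0.64, and GRE1, at 4.12 ± 0.48, followed by RTN2, a reticulon gene, at 2.34 ± 0.26 (SD, n = 4 each). These lie beside STL1, at 2.80, among the strongest increases on the arrays. The list was not uniform, and the 3 genes below were named after their values were seen. The cytosolic catalase gene CTT1, at 0.14 ± 0.22, the sodium pump gene ENA1, at -0.10 ± 0.20, and HOR7, at 0.33 ± 0.42, were not called (SD, n = 4 each; limma, adjusted p = 0.198, 0.331 and 0.0916). Among the targets of the pathway that belong to the glycerol genes, STL1 averaged 2.80, GPD1 0.41 and GPP2 -1.11, so that GPP2 did not share the direction of SIP18 and GRE1. ENA1 has near-identical tandem copies, and its spot cannot fully separate them.

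Regulators and relatives of the glycerol transporters were called higher in 3 and lower in 2 of 9 cases, and the median log2 ratio was 0.10. The regulators of Fps1 lay on opposite sides of 0, with ASK10 at 0.36 ± 0.31 and RGC1 at -0.40 ± 0.16 (SD, n = 4 each). The ASK10 call (limma, adjusted p = 0.0319) was lost without either synthetic-in-Cy5 array (adjusted p = 0.127 and 0.0977). YPK2, a kinase of the TORC2 branch, averaged 1.14 ± 0.14 (SD, n = 4). The water channel gene AQY2 averaged -1.44 ± 0.23 (SD, n = 4), the largest decrease of the list, and GUP2 averaged 0.30 ± 0.07 (SD, n = 4).

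**Figure D5:**
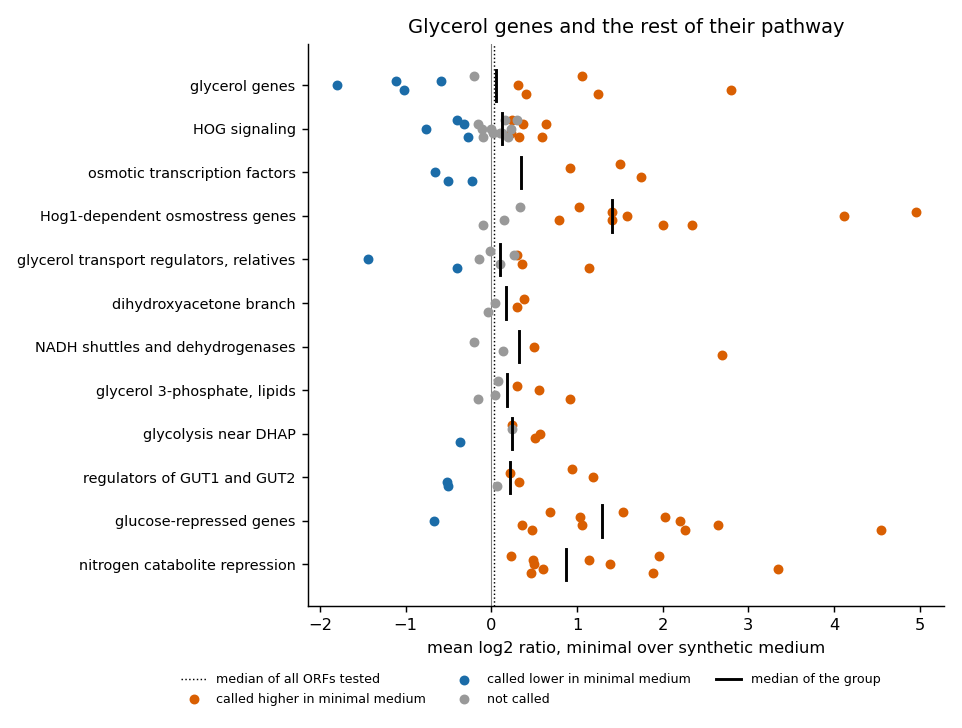
Mean log2 ratio of minimal over synthetic medium (x axis) for the glycerol genes and for the measured genes of 11 lists of their wider pathway (rows), colored by call, with the median of each group as a bar and the median of all ORFs as a dotted line. The Hog1-dependent, glucose-repressed and nitrogen catabolite repression lists have medians of 1.41, 1.29 and 0.87, and the other lists and the glycerol genes have medians between 0.05 and 0.34.

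The dihydroxyacetone branch, to which GCY1 belongs, lay near 0. Dihydroxyacetone kinase DAK1 averaged -0.03 ± 0.10 and its isozyme DAK2 0.30 ± 0.15 (SD, n = 4 each), and of this pair DAK2 was called (limma, adjusted p = 0.00975). YPR1, the paralog of GCY1, averaged 0.04 ± 0.07 (SD, n = 4) and was not called. ARA1, another aldo-keto reductase, averaged 0.38 ± 0.34 (SD, n = 3; limma, adjusted p = 0.0482), but its log2 ratios of 0.63 and 0.51 on the minimal-in-Cy5 arrays and -0.01 on the first synthetic-in-Cy5 array had both signs. That call was lost without either minimal-in-Cy5 array (adjusted p = 0.155 and 0.178).

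Gut2 is one of several routes by which cytosolic NADH reaches the respiratory chain. Genes of NADH shuttles and of mitochondrial NADH dehydrogenases were set beside it. The external NADH dehydrogenase gene NDE1 averaged 2.69 ± 0.12 (SD, n = 4), a 6.47-fold higher level in minimal medium (limma, adjusted p = 8.13e-07). Its isozyme NDE2 averaged 0.14 ± 0.07 (SD, n = 4) and was not called (adjusted p = 0.0610). NDE2 passed with a dye orientation term or with its own variance (limma, adjusted p = 0.0285 and 0.0454). It also passed at an unadjusted P of 0.05 in the observed direction. The internal dehydrogenase NDI1 averaged 0.49 ± 0.04 (SD, n = 4) and was called higher. ADH3, of the mitochondrial ethanol and acetaldehyde shuttle, averaged -0.20 ± 0.20 (SD, n = 4) and was not called (adjusted p = 0.0730), but passed with arrays centered on their median (adjusted p = 0.0337). NDE1 thus had a higher mean than GUT2, at 1.25, and the other members of the list had lower means, differences that were not tested.

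Glycerol 3-phosphate also feeds phospholipid synthesis. Its acyltransferases SCT1, at -0.15 ± 0.06, and GPT2, at 0.04 ± 0.09, were not called (SD, n = 3 each). AYR1, which makes acylated glycerol 3-phosphate from the dihydroxyacetone side, averaged 0.56 ± 0.04 (SD, n = 4), and PGS1, of mitochondrial phosphatidylglycerol synthesis, 0.29 ± 0.09 (SD, n = 3). The PGS1 call was lost without the first array of either orientation (limma, adjusted p = 0.0564 and 0.0557). The glycerophosphoinositol permease gene GIT1 averaged 0.92 ± 0.33 (SD, n = 4) and the glycerophosphodiesterase gene GDE1 0.07 ± 0.16 (SD, n = 4), of which GIT1 was called. The list held 3 calls among 6 genes, all of them higher, with a median of 0.18.

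In glycolysis around dihydroxyacetone phosphate, 3 of 5 genes were called higher and 1 lower, with a median of 0.24. Triose phosphate isomerase, TPI1, averaged 0.51 ± 0.16 and the glyceraldehyde 3-phosphate dehydrogenase gene TDH1 0.57 ± 0.26 (SD, n = 4 each). Aldolase, FBA1, averaged -0.37 ± 0.32 (SD, n = 4; limma, adjusted p = 0.0310), with 1 array above 0. The FBA1 call was lost without either minimal-in-Cy5 array or without the second synthetic-in-Cy5 array (adjusted p of 0.0731 to 0.0885). TDH2 averaged 0.24 ± 0.45 and TDH3 0.24 ± 0.20 (SD, n = 4 each), and TDH3 was called (adjusted p = 0.0402). The TDH3 call was lost without the same arrays as that of FBA1 (adjusted p of 0.0787 to 0.166). TDH1, TDH2 and TDH3 are near-identical in sequence, and whole-ORF spots cannot fully separate them.

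Among 7 regulators known to act on GUT1 or GUT2, 4 were called higher, 2 were called lower and the median was 0.22. INO4 averaged 1.19 ± 0.15 and its partner INO2 0.32 ± 0.19 (SD, n = 4 each), both activators of phospholipid genes. RSF1 averaged 0.94 ± 0.08 and RSF2, a zinc-finger factor gene, -0.50 ± 0.24 (SD, n = 4 each). SNF1, the kinase of glucose derepression, averaged -0.52 ± 0.11 (SD, n = 4). ADR1, an activator of GUT1 that was named after its values were seen, averaged 0.06 ± 0.42 (SD, n = 4) with arrays on both sides of 0 and was not called (limma, adjusted p = 0.736).

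GUT1, GUT2 and STL1 are known to be repressed by glucose, and 12 other genes of that kind were set beside them. Of these 11 were called higher and 1 lower, and their median log2 ratio was 1.29. Fructose-1,6-bisphosphatase, FBP1, averaged 4.54 ± 0.27, the acetyl-CoA synthetase gene ACS1 2.65 ± 0.22 and the malate dehydrogenase gene MDH2 2.26 ± 0.29 (SD, n = 4 each). ADH2, the alcohol dehydrogenase of ethanol use, was the exception at -0.66 ± 0.11 (SD, n = 4; limma, adjusted p = 0.000131). Its whole-ORF spot can share signal with other alcohol dehydrogenase genes, which was not tested. GUT1, at 1.05, and GUT2, at 1.25, lay a little below the median of this list, and STL1, at 2.80, above all of its genes but FBP1.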

How the data were processed

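Values were the normalized log2 ratios of 4 two-color arrays, which the authors deposited as 1 value per ORF and array. According to the methods, the authors scanned the slides with a GenePix scanner, subtracted background, and normalized by the mean of well measured spots, so that a ratio is relative to the average spot. Spots not well measured carry no value, as in 229 ORFs without any. No scanner intensities were used here. The study's own test, the Bayesian program BAGEL, was not run.

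ORFs measured on 3 or 4 arrays, 5956 in all, entered the fit in limma 3.58.1 (R 4.3.3) with the mean log2 ratio as the coefficient, moderated variances and Benjamini-Hochberg adjustment at 0.05. GCY1 was fitted on its 3 values. Alternatives left out each array, added a replicate or orientation term, centered or scaled arrays, changed the ORFs kept, and changed the variance or the threshold. Names came from the NCBI gene table and matched 5801 of 6301 ORFs. The table gave names and gene order, and no coordinates are printed. Priming sites, promoter motifs and protein identities were not analysed here.

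The 10 genes and the 11 lists (97 symbols) were chosen with earlier results of these data known. All 10 genes are named. From each list up to 3 called genes with the largest increases and up to 3 with the largest decreases, with 1 sign on every array, could be named, as could every gene of a list of 6 or fewer; exceptions are marked in the text. Simulated arrays of this comparison, with 200 of 5956 ORFs changed, were used to test the fit. It recovered 44% of log2 shifts of 0.3, 78% of 0.5, 96% of 1 and 100% of 2, with 4.22% false calls. The simulation held far fewer changed ORFs than the 3891 called in the data, so these rates need not hold for the data. The number of arrays limits the precision.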

Additional observations from a re-analysis of the deposited data

Results flagged for a closer look

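Among the 95 glycerol and list genes with 4 values, 7 had an array far from the other 3, by a gap past Dixon's 95% limit on the share of the range. Chance alone gives this in about 5% of such groups, 1 in 20, and the 7 make up 7.37%. None of the 9 glycerol genes with 4 values was among them. Some of these genes were named after their values were seen. SKN7 had log2 ratios of -0.35 and -0.57 on the minimal-in-Cy5 arrays and -0.56 and -0.54 on the synthetic-in-Cy5 arrays, and the first array stood apart with a gap of 0.848 of the range. NDI1 had log2 ratios of 0.48 and 0.47 on the minimal-in-Cy5 arrays and 0.56 and 0.47 on the synthetic-in-Cy5 arrays, where the first synthetic-in-Cy5 array stood apart (0.869 of the range). The aldehyde dehydrogenase gene ALD3 was lower on the first minimal-in-Cy5 array, at 1.33, than on the other arrays, at 1.43 to 1.45 (0.902 of the range). The acetate transporter gene ADY2 was lower on the second minimal-in-Cy5 array, at 1.15, than on the others, at 1.63 to 1.68 (0.906). For 3 genes the second synthetic-in-Cy5 array stood apart. DAL7, the malate synthase of allantoin use, was at 1.70 there and at 1.25 to 1.31 elsewhere (0.860). PTC3, a phosphatase that acts on Hog1, was at -0.50 there and between -0.08 and 0 elsewhere (0.843). GUP1, a membrane-bound acyltransferase gene, was at 0.08 there and at -0.22 to -0.21 elsewhere (0.961), and of the 7 it alone changed sign on the array apart.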

How the results depend on the processing

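Of the glycerol genes, 8 stayed past the threshold in the same direction under all 12 alternatives. FPS1 did so under 11 and kept its log2 ratio of 0.31 but not its call with its own variance. GCY1 passed with a dye orientation term (-0.23) and at the study's threshold, an unadjusted P of 0.05 in the observed direction (-0.20). Same-numbered arrays did not deviate together (r = 0.0121 across ORFs). This cannot decide whether the numbers pair the arrays, since the spread between arrays may be technical. With the replicate number as a block, 3501 ORFs were called in place of 3891, and 5 glycerol genes were called higher and 4 lower, as without it. Leaving out an array gave 3317 to 3736 calls. Some counts of short lists moved. Calls in the dihydroxyacetone branch (2 in the fit reported) were 1 with the replicate block, with arrays centered on their median and with ORFs measured on all 4 arrays, 0 with each ORF's own variance, and 1 to 2 with an array left out. The glycolytic list (4 calls, 1 lower) had 2 calls and 0 lower with each ORF's own variance, 0 lower with the replicate block, and 2 to 4 calls with 0 to 1 lower with an array left out. The list of NADH shuttles had 1 lower call (ADH3) with centered arrays and at the study's threshold, where it had 4 calls in all. The glycerol 3-phosphate list had 1 lower call at the study's threshold, and the HOG signaling list had 10 higher calls, in place of 6, with a dye orientation term. Of the list genes named in the text, NBP2, HOT1, ASK10, DAK2, ARA1, PGS1, FBA1, TDH3 and INO2 lost their calls with their own variance (limma without moderation, adjusted p of 0.0529 to 0.248). ASK10, ARA1 and FBA1 lost theirs with the replicate block (limma, adjusted p = 0.0538, 0.0712 and 0.0533), and ARA1 and TDH3 with centered arrays (adjusted p = 0.0554 and 0.0799). The cause was not tested. No result reversed under these alternatives. The table used here holds ratios, so signal over background was not used to weigh a spot. Simulated log2 shifts of 0.3 were found in 44% of cases, with 200 of 5956 ORFs changed. The fit of the data called 3891 ORFs, so that rate does not give the chance of finding the FPS1 change.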

Other observations

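The genes beside each glycerol gene on its chromosome were looked up after the other values were known. Of the 20 neighbors 19 were tested and 14 called, beside 65.3% of all ORFs tested (33.8% higher and 31.5% lower). For the 9 called glycerol genes, 10 of 18 neighbors were called in the same direction, 3 in the opposite direction and 4 were not called, with 1 not tested. GPP1 averaged -1.80, whereas its neighbors YIL054W averaged 0.47 ± 0.37 and RPL34B -0.12 ± 0.17 (SD, n = 4 each; limma, adjusted p = 0.0194 and 0.199). GUT1 lay between RPL8A, at -0.27 ± 0.04, and GOS1, at 0.38 ± 0.09 (SD, n = 4 each). Beside GPD2 lay ARG1, of arginine synthesis, at -3.52 ± 0.25 (SD, n = 4), a larger decrease than that of GPD2 itself. In 12 of the 17 cases with a value the neighbor changed less than the glycerol gene. Besides ARG1, the neighbors that changed more were GPM2 of GPD1 (0.98), RPL8B and ATG10 of FPS1 (0.34 and 0.42) and AVL9 of HOG1 (-0.88). The same share was not computed for other ORFs. Of the 10 glycerol genes, which were chosen with earlier results known, 6 were called with a change of 2-fold or more, beside 10.3% of all ORFs tested.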
